A study of Mus musculus with 12 samples.

Results

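The CC chemokine genes *Ccl2*, *Ccl5*, *Ccl7*, *Ccl8*, *Ccl9* and *Ccl20* were followed across 3 culture conditions in sorted mouse pancreatic stellate cells (PSCs). Each was found as the single row of the count table that carried its symbol, which gave 6 of the 39179 genes listed. RNA from 12 libraries was counted by gene, 4 libraries for each culture condition, with total counts of 4561817 to 8093368 per library. PSCs labelled with mCherry were kept for 72 h on their own (mono-PSCs), beside EGFP-labelled pancreatic cancer cells (2W-PSCs), or beside PCCs as well as TagBFP-labelled macrophages (MØs, 3W-PSCs), and were then sorted as mCherry-positive cells without EGFP or TagBFP. The labels give strain C57BL/6 and 4 biological replicates per condition. The PSCs were 1 SV40-immortalised clone. The PCCs were a mouse line whose genotype includes *p48-Cre*, ROSA26-LSL-rtTA-IRES-GFP and *p53* fl/+, and the MØs were the RAW264.7 line. All flasks held Minimal Medium and received the same total number of cells, so that the co-cultures started with fewer PSCs. The question these cultures address is which signals PSCs switch on when cancer cells, or cancer cells and MØs, are present.

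Chemokines are small secreted proteins that direct the movement of leukocytes through receptors coupled to G proteins, and the CC class is named for a pair of neighbouring cysteines near the start of the mature protein. CCL2 and CCL7 act through CCR2 and recruit monocytes, CCL8 is a close relative of both, CCL5 attracts T cells and myeloid cells, CCL9 is a CCR1 ligand, and CCL20 is the ligand of CCR6. In pancreatic tumours, fibroblasts are a known source of CCL2, and several of these genes are textbook targets of NFκB, STAT and interferon signalling.

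The feature that defines the class is written in the coding sequence of each gene. The 42 coding bases around it are shown, 5′ to 3′, with the adjacent pair of cysteine codons in capitals. The positions are those of the capitals in GENCODE release M21 on GRCm38, and the sequence was read from the transcripts of the same release.
*Ccl2*, chr11:82036506-82036511 (+ strand): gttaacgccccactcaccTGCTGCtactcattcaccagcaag
*Ccl7*, chr11:82046538-82046543 (+ strand): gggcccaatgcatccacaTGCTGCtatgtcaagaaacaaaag
*Ccl8*, chr11:82116056-82116061 (+ strand): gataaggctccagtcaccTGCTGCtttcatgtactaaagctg
*Ccl5*, chr11:83529242-83529247 (- strand): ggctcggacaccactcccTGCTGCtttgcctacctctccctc
*Ccl9*, chr11:83575926-83575931 (- strand): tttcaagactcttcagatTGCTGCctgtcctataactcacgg
*Ccl20*, chr1:83117813-83117818 (+ strand): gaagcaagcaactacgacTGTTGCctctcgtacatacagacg
The pair was written TGCTGC in 5 of the 6 genes and TGTTGC in *Ccl20*. It began at codon 34 of *Ccl2*, 33 of *Ccl7* and *Ccl5*, 32 of *Ccl8* and *Ccl20* and 57 of *Ccl9*. The coding sequences of *Ccl2* and *Ccl7* were identical at 73.4% of 293 aligned bases, and those of *Ccl2* and *Ccl8* at 73.5% of 291. No 75-base window in the last 500 bases of any of the 6 genes' transcripts occurred in another gene, and their exons overlapped no other gene, so reads of one member could not be split with another by sequence identity at that length.

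The members lie in 3 places of the genome. *Ccl2* (ENSMUSG00000035385, chr11:82035571-82037453), *Ccl7* (ENSMUSG00000035373, chr11:82045712-82047525) and *Ccl8* (ENSMUSG00000009185, chr11:82115185-82116799) lie on the plus strand within 79.6 kb, measured from the start of *Ccl2* to that of *Ccl8*. *Ccl5* (ENSMUSG00000035042, chr11:83525778-83530518) and *Ccl9* (ENSMUSG00000019122, chr11:83572919-83578636) lie farther along chromosome 11 on the minus strand, about 1495 and 1543 kb from the start of *Ccl2*. *Ccl20* (ENSMUSG00000026166, chr1:83116766-83119167) stands alone on the plus strand of chromosome 1.

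Levels are given as counts per 1000000 counts (CPM) with TMM scaling of the library sizes. The 3′ kit counts about 1 fragment per transcript whatever its length, so that CPM values of different genes were compared without a length correction. Log2 fold changes and adjusted p-values are from edgeR's quasi-likelihood test, fitted over all genes that passed the filter on low counts and adjusted by the Benjamini-Hochberg method, with a threshold of 0.05. Single values were compared with two-sided exact permutation tests, which with 4 libraries against 4 cannot give less than p = 0.0286. In these bulk samples, a change in the RNA per cell and a change in the share of cells that hold it cannot be told apart.

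Before the results, the libraries were compared with each other and with the cell types they could hold. The 12 fibroblast and stellate cell markers were present in every culture, at a summed 9215 to 13213 CPM in mono-PSC, 13327 to 20269 CPM in 2W-PSC and 7874 to 9678 CPM in 3W-PSC libraries. Between 3W-PSCs and 2W-PSCs, 5 of the 11 tested fell, *Col1a1*, *Col3a1*, *Dcn*, *Sparc* and *Thy1*, and 1 rose, *Pdgfra*, where 4.95% of all genes were called lower and 5.73% higher. With any 1 library left out, 3 to 6 fell and 1 to 2 rose. The part of these markers in the results was not tested. One library, 2W-PSC replicate 2, had the lowest total count and stood apart from its group, with Spearman correlations of 0.858 to 0.920 with the other 2W-PSC libraries, and results that rest on it are given with and without it. The 16 macrophage markers summed to between 2.46 and 8.83 CPM in mono-PSC libraries, to between 4.93 and 13.0 CPM in 2W-PSC libraries, and to between 26.5 and 68.6 CPM in 3W-PSC libraries. *Adgre1*, which encodes F4/80, was at 0 counts in all libraries, and *Ptprc*, which encodes CD45, had 0, 0, 6 and 20 counts in the 4 3W-PSC libraries and 0 elsewhere. For the 12 epithelial markers the sums were between 0.484 and 2.46 CPM, between 77.5 and 151 CPM and between 52.9 and 91.8 CPM in the libraries of these cultures in the same order.

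*Ccl2*, *Ccl7*, *Ccl5* and *Ccl8* were each higher in all 4 3W-PSC libraries than in any 2W-PSC or mono-PSC library, whereas *Ccl9* was lower in 3W-PSCs than in mono-PSCs and *Ccl20* was counted almost only in 3W-PSCs. Of the 5 members that passed the filter in the comparison of 3W-PSCs with 2W-PSCs, 4 rose and 0 fell, of which *Ccl2*, *Ccl5* and *Ccl7* also passed the filter without the 3W-PSC libraries and *Ccl8* did not, where 10.7% of all 11513 genes tested were called in either direction, 5.73% higher and 4.95% lower. The same 4 did not overlap between these cultures, as was so for 21.3% of all genes tested. Against mono-PSCs, 4 of 5 rose and 1 fell, where 26.4% of 11551 genes were called, 13.4% higher and 13% lower, and all 5 were without overlap, against 25.9% of all genes. Both comparisons use the same 3W-PSC libraries. The 6 genes together made up 1571 to 2293 CPM in 3W-PSCs, against 51.5 to 109 CPM in 2W-PSCs and 64.4 to 90.5 CPM in mono-PSCs.

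**Figure D1:**
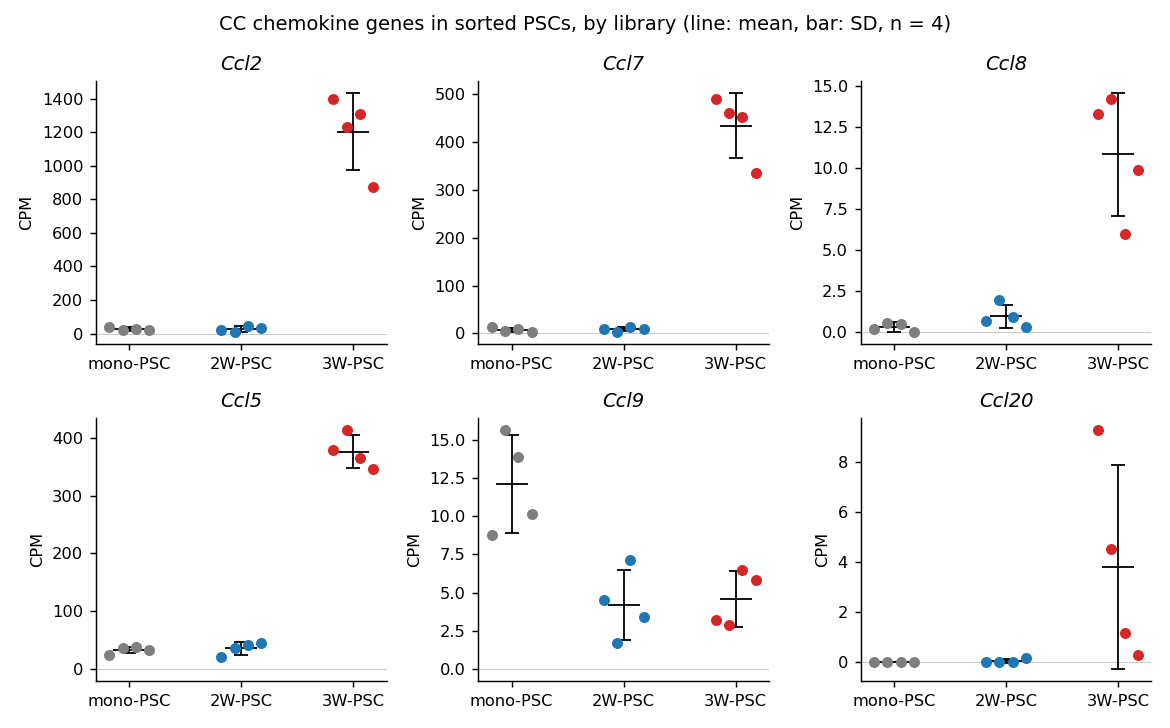
CPM of the 6 CC chemokine genes in each of the 12 libraries, by culture, 1 panel per gene, each y axis starting near 0 with its own scale. Points are libraries, horizontal lines are means and bars are SD (n = 4). *Ccl2*, *Ccl7*, *Ccl8* and *Ccl5* are high only in the 3W-PSC column, *Ccl9* is highest in mono-PSCs, and the 3W-PSC points of *Ccl20* spread from 0.260 to 9.30 CPM.

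*Ccl2* encodes the main monocyte attractant of the group. It was measured at 41.1, 19.4, 29.3 and 19.2 CPM in mono-PSC replicates 1 to 4, at 21.3, 8.10, 44.7 and 32.8 CPM in 2W-PSCs, and at 1398, 1231, 1309 and 873 CPM in 3W-PSCs. The mono-PSC and 2W-PSC libraries covered the same range, and the lowest 3W-PSC library was far above all of them. In 2W-PSCs the mean was 26.7 ± 15.7 CPM, and in 3W-PSCs it was 1203 ± 230 CPM (SD, n = 4), a log2 fold change of 5.49 (SE 0.46, edgeR adjusted p = 5.81e-05). Against mono-PSCs, at 27.2 ± 10.3 CPM, the log2 fold change was 5.46 (SE 0.27, edgeR adjusted p = 2.97e-10). Without 2W-PSC replicate 2, which held the lowest *Ccl2* level of all libraries, the log2 fold change between 3W-PSCs and 2W-PSCs was 5.20.

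*Ccl7*, whose start lies 10.1 kb from that of *Ccl2*, encodes a second monocyte attractant. It was at 13.3, 6.07, 9.05 and 2.54 CPM in mono-PSC replicates 1 to 4, at 10.1, 3.19, 14.3 and 8.51 CPM in 2W-PSCs, and at 490, 460, 451 and 335 CPM in 3W-PSCs. As for *Ccl2*, replicate 4 was the lowest of the 3W-PSC libraries and replicate 2 the lowest of the 2W-PSC libraries. The mean was 9.04 ± 4.61 CPM in 2W-PSCs but 434 ± 68.0 CPM where MØs were added (SD, n = 4), with a log2 fold change of 5.56 (SE 0.37, edgeR adjusted p = 1.79e-05), or 5.31 without 2W-PSC replicate 2. The difference from mono-PSCs, at 7.75 ± 4.58 CPM, was 5.83 on the log2 scale (SE 0.34, edgeR adjusted p = 2.01e-09). By size of log2 fold change between 3W-PSCs and 2W-PSCs, *Ccl7* ranked 20 and *Ccl2* ranked 21 from the top of 11513 genes.

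*Ccl8*, the most distant gene of the *Ccl2* group at 79.6 kb, encodes a chemokine that attracts monocytes and, in the mouse, acts on CCR8. It had 1, 3, 3 and 0 counts in mono-PSC replicates 1 to 4, 5, 8, 6 and 2 counts in 2W-PSCs, and 100, 123, 47 and 76 counts in 3W-PSCs. The 3W-PSC libraries were thus all above the others, at 10.8 ± 3.74 CPM (SD, n = 4), but at a level more than an order of magnitude under that of *Ccl2* and *Ccl7*. The log2 fold change against 2W-PSCs, at 0.986 ± 0.701 CPM, was 3.53 (SE 0.50, edgeR adjusted p = 0.00157), or 4.00 without 2W-PSC replicate 2. *Ccl8* passed the filter only through the 3W-PSC libraries in which it is high, so that its call is no support for the count of members that rose. Since no mono-PSC library had more than 3 counts, the level of 3W-PSCs is given against a floor of 3 counts per library, as at least 21.6-fold higher than in mono-PSCs (edgeR adjusted p = 4.12e-06).

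*Ccl5*, the T cell and myeloid attractant also called RANTES, was among the members the most even between libraries. It was at 24.8, 36.6, 37.8 and 32.4 CPM in mono-PSC replicates 1 to 4, at 19.99, 36.6, 41.7 and 45.1 CPM in 2W-PSCs, and at 379, 414, 365 and 346 CPM in 3W-PSCs. In mono-PSCs and 2W-PSCs its mean was the highest of the 6 genes, though its libraries overlapped with those of *Ccl2*. From 35.8 ± 11.1 CPM in 2W-PSCs, the mean rose to 376 ± 28.5 CPM with MØs present (SD, n = 4), a log2 fold change of 3.40 (SE 0.25, edgeR adjusted p = 3.26e-05). Against mono-PSCs, at 32.9 ± 5.91 CPM, it was 3.51 (SE 0.17, edgeR adjusted p = 2.99e-10).

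*Ccl9*, a CCR1 ligand, did not rise in 3W-PSCs. It was at 8.78, 15.7, 13.8 and 10.2 CPM in mono-PSC replicates 1 to 4, at 4.51, 1.72, 7.16 and 3.37 CPM in 2W-PSCs, and at 3.19, 2.89, 6.49 and 5.85 CPM in 3W-PSCs. Every library of both co-cultures was below every mono-PSC library. In mono-PSCs the mean was 12.1 ± 3.19 CPM, and the fall to 4.60 ± 1.83 CPM in 3W-PSCs (SD, n = 4) passed the test, with a log2 fold change of -1.40 (SE 0.33, edgeR adjusted p = 0.00453). The mean in 2W-PSCs was 4.19 ± 2.29 CPM, and the log2 fold change from mono-PSCs to 2W-PSCs was -1.49 (SE 0.42), with an edgeR adjusted p of 0.166 and an exact permutation p of 0.0286, the smallest that 4 against 4 libraries can give. DESeq2 gave -1.504 with an adjusted p of 0.0379 for the same libraries, so the call depends on the tool. Between 3W-PSCs and 2W-PSCs the log2 fold change was 0.12 (SE 0.46, edgeR adjusted p = 0.904), and it changed sign, to -0.12, without 2W-PSC replicate 2.

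*Ccl20*, the CCR6 ligand that attracts lymphocytes and dendritic cells, failed the filter on low counts in every comparison. It had 0 counts in all 4 mono-PSC libraries, which at these depths allows up to 0.363 to 0.588 CPM per library, and 0, 0, 0 and 1 count in 2W-PSCs. The 3W-PSC libraries had 70, 39, 9 and 2 counts, so that replicates 1 and 2 carried most of the signal and replicate 4 was under the floor of 3 counts. The mean in 3W-PSCs was 3.80 ± 4.09 CPM (SD, n = 4), which against that floor was at least 7.57-fold higher than in mono-PSCs and at least 7.18-fold higher than in 2W-PSCs. The 3W-PSC libraries did not overlap with those of either other culture (exact permutation p = 0.0286 for each). At its closest, this separation was 2 counts in 3W-PSC replicate 4 against 1 count in 2W-PSC replicate 4 and 0 in mono-PSCs. All of these are under the floor of 3 counts. Without 3W-PSC replicate 1, the difference of the mean from 2W-PSCs dropped from 3.76 to 1.93 CPM.

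**Figure D2:**
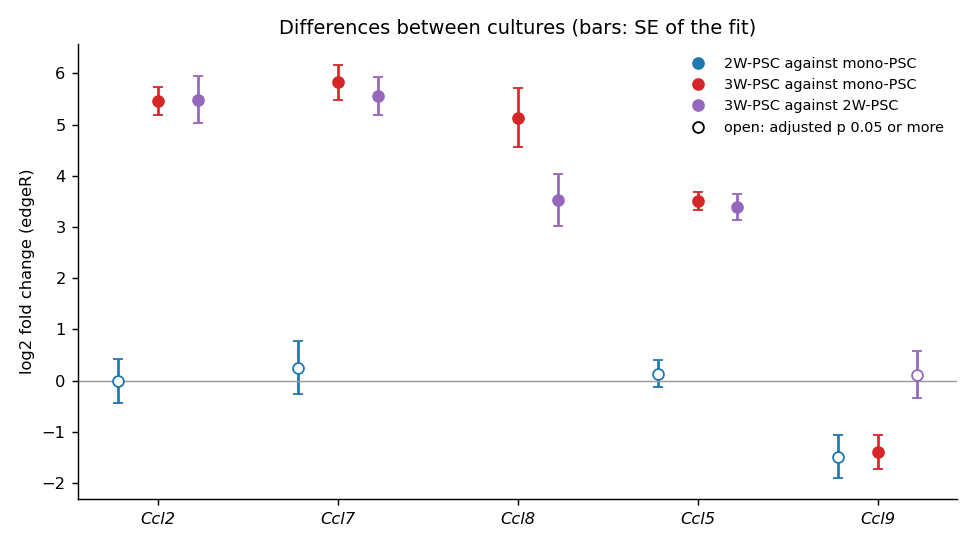
Log2 fold change (y axis, edgeR) of the members that passed the filter, for 2W-PSCs against mono-PSCs, 3W-PSCs against mono-PSCs and 3W-PSCs against 2W-PSCs. Bars are SE of the fit, and open points have an adjusted p of 0.05 or more. *Ccl2*, *Ccl7*, *Ccl8* and *Ccl5* lie between 3.40 and 5.83 in both comparisons of 3W-PSCs, and *Ccl9* lies at or below 0.12. The *Ccl8* point against mono-PSCs is a fitted value and no bound.

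Cancer cells on their own gave no called change in these genes. Of the 4 members tested between 2W-PSCs and mono-PSCs, edgeR called 0, where 0.991% of 11199 genes were called, 0.839% higher and 0.152% lower. The libraries of 1 of the 4 did not overlap, as was so for 5.73% of all genes tested. One of them, *Ccl9*, had an unadjusted p under 0.05 (0.00360), and DESeq2 called 1. The log2 fold changes were -0.01 for *Ccl2* (SE 0.43), 0.14 for *Ccl5* (SE 0.27) and 0.26 for *Ccl7* (SE 0.51), each with an edgeR adjusted p of 0.999 and with libraries that overlapped. *Ccl8* failed the filter here, with means of 0.324 ± 0.283 CPM for mono-PSCs and 0.986 ± 0.701 CPM for 2W-PSCs (SD, n = 4, exact permutation p = 0.114). At this spread, the lack of a call does not show that a level stayed the same.

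The order of the levels was also different in 3W-PSCs. In mono-PSCs the order of the means was *Ccl5*, *Ccl2*, *Ccl9*, *Ccl7*, *Ccl8* and *Ccl20*, and the libraries of *Ccl5* and *Ccl2*, of *Ccl9* and *Ccl7* and of *Ccl8* and *Ccl20* overlapped. In 2W-PSCs *Ccl7* stood above *Ccl9*, but each gene from *Ccl5* down to *Ccl8* overlapped with its neighbour. In 3W-PSCs *Ccl2* was first, clear of all others, followed by *Ccl7* and *Ccl5*, which overlapped, and by *Ccl8*, *Ccl9* and *Ccl20*, of which each overlapped with the next.

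Ratios within a library, which do not depend on its depth, set these shifts apart from the rise itself. The log2 ratio of *Ccl5* to *Ccl2* counts, with 0.5 added to each count, was 0.33 ± 0.74 in mono-PSCs, 0.61 ± 1.07 in 2W-PSCs and -1.66 ± 0.26 in 3W-PSCs (SD, n = 4). All 3W-PSC libraries were below all others, and the difference was -2.27 from 2W-PSCs and -1.98 from mono-PSCs (exact permutation p = 0.0286 for each). The ratio of *Ccl5* to *Ccl2* was 4.46 in 2W-PSC replicate 2, and without that library the difference from 2W-PSCs was -1.75. *Ccl2* thus rose more than *Ccl5* in 3W-PSCs, with a ratio of *Ccl2* to *Ccl5* of 3.15 there (geometric mean of 4 libraries) against 0.656 in 2W-PSCs and 0.798 in mono-PSCs.

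The neighbours *Ccl7* and *Ccl2* kept a close ratio in 3W-PSCs, where *Ccl7* had 0.351, 0.374, 0.345 and 0.384 times the counts of *Ccl2* in replicates 1 to 4. The log2 ratio was -1.46 ± 0.074 there, -1.49 ± 0.38 in 2W-PSCs and -1.96 ± 0.62 in mono-PSCs (SD, n = 4). It did not differ beyond the spread between 3W-PSCs and 2W-PSCs (difference 0.025, exact permutation p = 0.914). The difference between 3W-PSCs and mono-PSCs was 0.50 (exact permutation p = 0.0286) and rested on mono-PSC replicate 4, with 21 *Ccl7* counts, since it was 0.19 without that library. As a share of the summed CPM of the 6 genes, *Ccl7* took 21.1 to 21.6% in the 3W-PSC libraries, *Ccl2* 55.6 to 61.2% and *Ccl5* 16.5 to 22.1%.

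**Figure D3:**
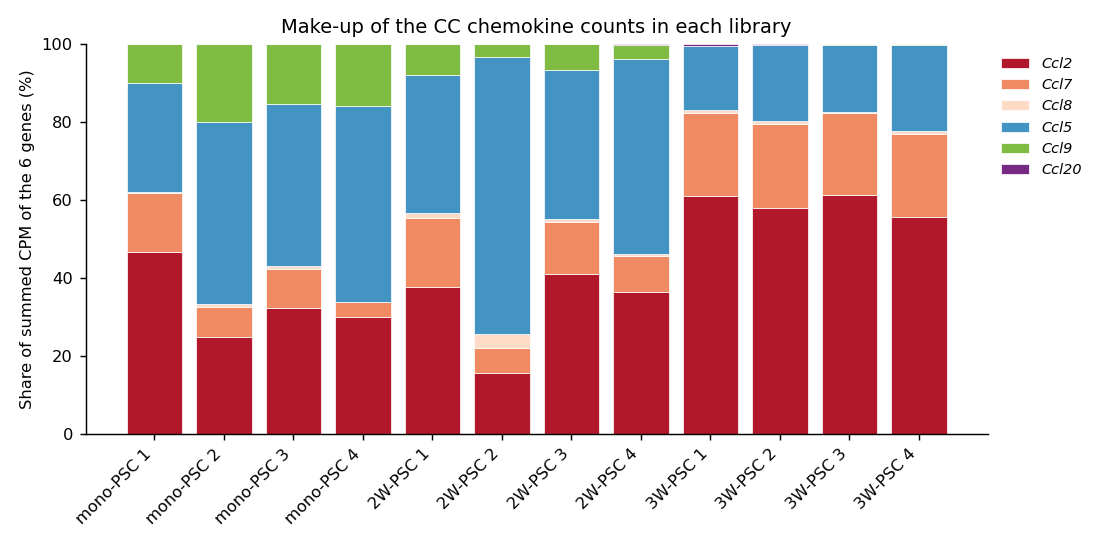
Share of each gene (y axis, %) in the summed CPM of the 6 CC chemokine genes, 1 bar per library, numbered by replicate. In the 4 3W-PSC bars *Ccl2* takes 55.6 to 61.2%. *Ccl5* takes 28.1 to 71.0% in the mono-PSC and 2W-PSC bars, with the 71.0% in 2W-PSC replicate 2. *Ccl9* shrinks from a mean of 15.3% in mono-PSCs to 0.238% in 3W-PSCs.

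The other CC ligand genes next to the members were at or near 0 counts. Between *Ccl7* and *Ccl8* lie *Ccl11*, which encodes eotaxin, and *Ccl12*, a further CCR2 ligand, with at most 2 and 5 counts in any library. *Ccl6*, the neighbour of *Ccl9*, had at most 4 counts. *Ccl3* and *Ccl4*, which encode the macrophage inflammatory proteins MIP-1α and MIP-1β and lie past *Ccl6*, had 0, 3, 18 and 19 counts and 5, 9, 18 and 20 counts in the 4 3W-PSC libraries, and at most 1 count elsewhere. The 3W-PSC libraries with the most *Ccl3* and *Ccl4* counts, replicates 3 and 4, also had the highest *Ccl9* levels of this culture, at 6.49 and 5.85 CPM. *Ccl2*, *Ccl7* and *Ccl20* were highest in replicate 1, and *Ccl5* and *Ccl8* in replicate 2. A link between these levels was not tested.

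**Figure D4:**
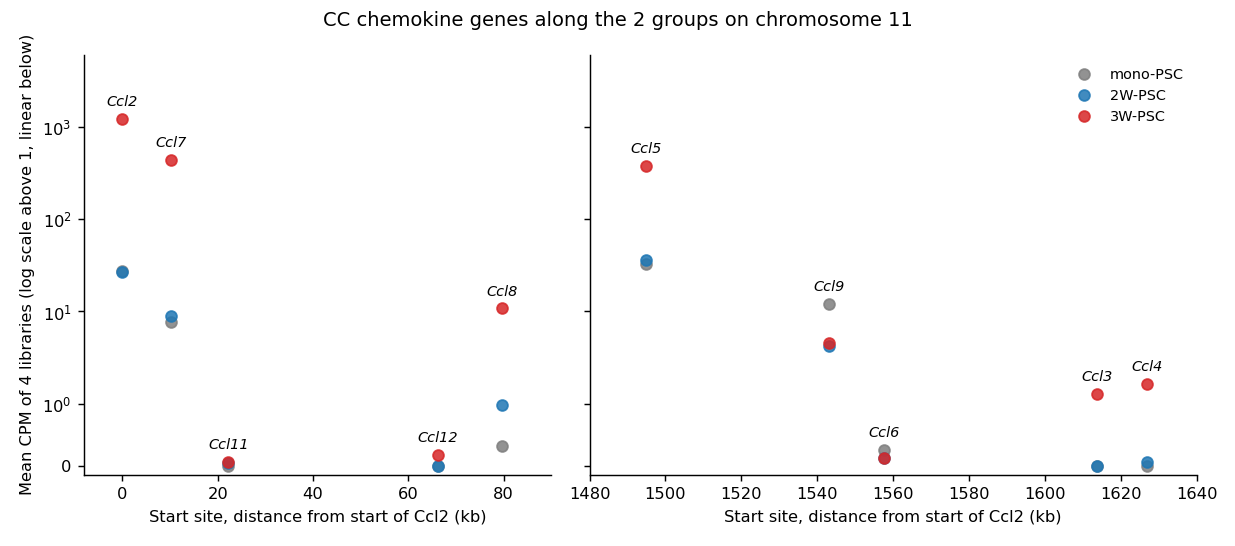
Mean CPM of 4 libraries (y axis, log scale above 1 and linear below) of the CC chemokine genes of chromosome 11, by the distance of their start from that of *Ccl2* (x axis, kb), in the group of *Ccl2* (left) and that of *Ccl5* (right). Colours are cultures. *Ccl2*, *Ccl7*, *Ccl8* and *Ccl5* are raised in 3W-PSCs, while *Ccl11*, *Ccl12* and *Ccl6* between or beside them stay under 0.3 CPM in every culture.

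Of the other 17 CC ligand genes of the mouse, 7 had no count in any library and 2 passed the filter in each comparison, *Ccl25* and *Ccl27a*. *Ccl27a*, a skin-associated CCR10 ligand, averaged 6.42 CPM in 2W-PSCs but 2.72 CPM with MØs added, a log2 fold change of -1.23 (SE 0.33, edgeR adjusted p = 0.0377), a call that was lost without any one of 6 of the 8 libraries. Its exons overlap *Il11ra1* on the opposite strand, and those of *Ccl25* overlap *Elavl1*, and the strand setting of the counting is not given in the sources used here, so that both are uncertain. *Ccl25* was not called in any comparison, with log2 fold changes of -0.23 for 3W-PSCs against 2W-PSCs, 0.83 for 3W-PSCs against mono-PSCs and 1.08 for 2W-PSCs against mono-PSCs (edgeR adjusted p = 0.749), where its libraries did not overlap.

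The sorted PSCs held almost no transcripts of the receptors for these ligands. Of 16 genes for CC chemokine receptors, atypical receptors and CCRL2, 9 had no count in any library, and *Ccr1*, *Ccr2* and *Ccr7* had at most 4 counts in any library. *Ccr10* had at most 8 counts, in mono-PSC replicate 3, and the scavenger gene *Ackr4* had 2, 9, 4 and 0 counts in 2W-PSCs and 0 in 3W-PSCs. *Ccrl2*, which encodes a receptor that binds chemerin and does not signal, had 14, 13, 13 and 9 counts in 3W-PSCs and at most 6 elsewhere, and failed the filter. The 1 gene of the list that was tested, *Ackr3*, encodes a scavenger of CXC and not CC ligands. In 2W-PSCs it was at 7.07 ± 3.69 CPM, and in 3W-PSCs it was higher, at 23.3 ± 6.21 CPM (SD, n = 4), a log2 fold change of 1.70 (SE 0.40, edgeR adjusted p = 0.0222), which was not called when 2W-PSC replicate 4, 3W-PSC replicate 2 or 3W-PSC replicate 3 was left out.

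Genes that act upstream of CC chemokine transcription were read from lists chosen for their role, with earlier results of these data known. How many of them rose is thus a description and no independent support. Of 12 cytokine and Toll-like receptor genes, 6 rose and 0 fell in 3W-PSCs against 2W-PSCs, where 5.73% of all genes tested were called higher, and the median log2 fold change was 0.81 where that of all genes was 0.00. The count was 8 without 2W-PSC replicate 2 and 5 to 8 with any 1 library left out. *Tlr2*, a receptor for bacterial lipoproteins, ranged from 19.7 to 25.8 CPM in 3W-PSC libraries, above the 1.41 to 3.66 CPM of the 2W-PSC libraries, with a log2 fold change of 3.04 (SE 0.30, edgeR adjusted p = 1.81e-04). *Osmr*, the receptor chain for oncostatin M, had 46.3 to 78.7 CPM against 4.42 to 10.03 CPM and a log2 fold change of 2.92 (SE 0.28, edgeR adjusted p = 1.44e-04). *Tlr3*, *Ifnar2*, *Il6st* and *Tnfrsf1a* were the other receptors that rose, by 0.80 to 1.44. In 2W-PSCs against mono-PSCs 1 of 12 rose, *Tnfrsf1b*, which encodes a TNF receptor, with a log2 fold change of 1.25 (SE 0.22, edgeR adjusted p = 0.0143), where 0.839% of all genes were called higher. The call was lost without 2W-PSC replicate 1 or 4 or mono-PSC replicate 2, 3 or 4.

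Of 15 genes for NFκB, STAT, IRF1 and C/EBP factors and for inhibitors of inflammatory transcripts, 13 rose and 0 fell in 3W-PSCs against 2W-PSCs, where 5.73% of all genes were called higher, and the median log2 fold change was 1.36. *Nfkbia*, which encodes the NFκB inhibitor IκBα and is itself an NFκB target, rose from 76.8 to 256 CPM in the 2W-PSC libraries to 1117 to 1865 CPM in the 3W-PSC libraries, a log2 fold change of 3.08 (SE 0.34, edgeR adjusted p = 3.70e-04). *Tnfaip3*, which encodes the feedback inhibitor A20, rose by 3.91 on the log2 scale (SE 0.53, edgeR adjusted p = 0.00115). It passed the filter only through the 3W-PSC libraries in which it is high, so that its call is no support for the count of 13. *Cebpd*, *Zc3h12a*, *Stat3*, *Relb* and *Cebpb* rose by 1.54 to 1.85, and *Rel* and *Zfp36* were not called, at 0.19 and 1.36. The count of 13 was 14 without 2W-PSC replicate 2, 10 without 3W-PSC replicate 4 and 8 without 3W-PSC replicate 1 or 2, while the calls over all genes went from 1230 to between 497 and 2107 with a library left out. Between 2W-PSCs and mono-PSCs edgeR called 0 of the 14 tested, with 2 at an unadjusted p under 0.05, and DESeq2 called 1.

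**Figure D5:**
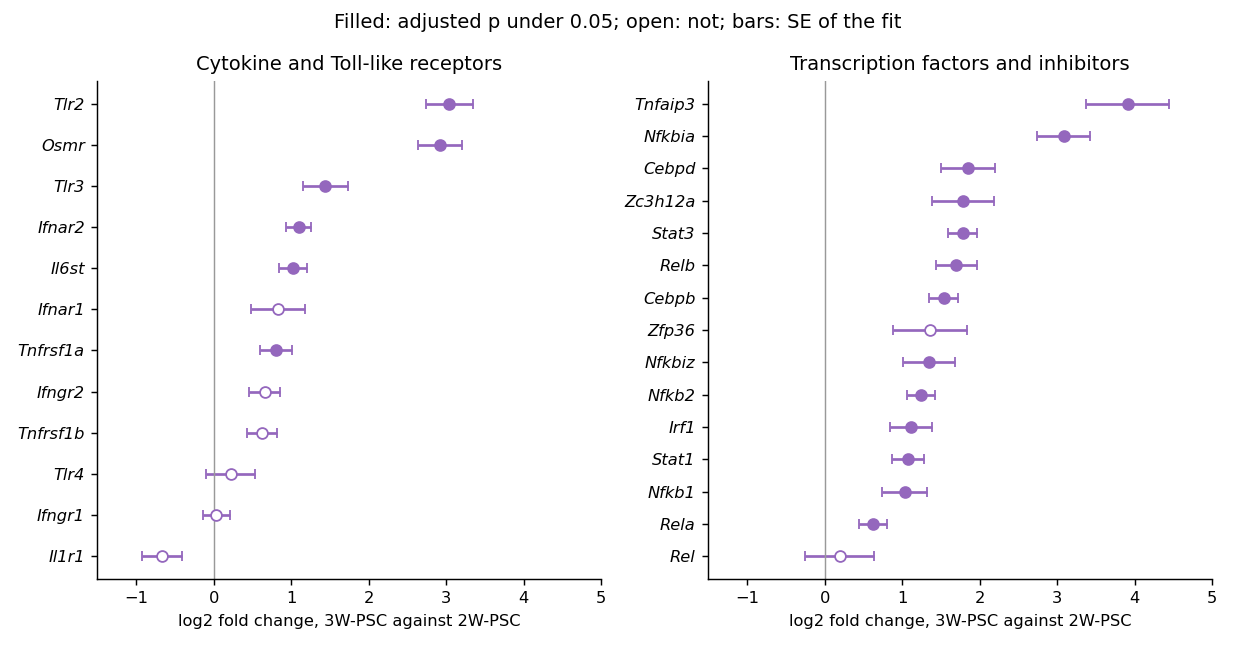
Difference between 3W-PSCs and 2W-PSCs as log2 fold change (x axis, edgeR) for the 12 receptor genes (left) and the 15 factor and inhibitor genes (right), each sorted by size. Bars are SE of the fit, filled points have an adjusted p under 0.05. All 6 filled receptors and all 13 filled regulators lie to the right of 0, with *Tlr2* at 3.04 and *Tnfaip3* at 3.91 at the top. *Tnfaip3* passed the filter only through the 3W-PSC libraries.

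CC chemokines are trimmed outside the cell by proteases, which can inactivate them. Of 8 such genes, 4 were tested and 2 rose in 3W-PSCs against 2W-PSCs, where 5.73% of all genes were called higher, and DESeq2 called 3. *Mmp9*, which encodes a gelatinase, had 27, 40, 9 and 17 counts in 3W-PSCs and 0 in all other libraries and failed the filter, and in 5 of the 8 fits with a library left out 5 of the 8 genes were tested and 3 called. *Mmp13*, which encodes a collagenase, ranged from 18.4 to 101 CPM in 3W-PSC libraries, above the 0.845 to 2.87 CPM of the 2W-PSC libraries, and *Mmp3*, which encodes stromelysin-1, had 31.2 to 127 CPM against 3.66 to 8.35 CPM, with log2 fold changes of 4.999 (SE 0.64, edgeR adjusted p = 8.40e-04) and 3.70 (SE 0.50, edgeR adjusted p = 0.00115). *Mmp13* passed this filter only through the 3W-PSC libraries in which it is high, so that its call is no support for the count of 2. *Mmp3* was the 1 gene of the list that rose in 2W-PSCs against mono-PSCs (edgeR adjusted p = 0.00883), at least 11.8-fold higher against the floor of 3 counts per library, since its mono-PSC libraries had 1, 3, 0 and 0 counts. In that comparison it passed the filter only through the 2W-PSC libraries, and 0.839% of all genes were called higher. *Dpp4*, whose product removes the first residues of several chemokines, had at most 4 counts in any library.

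The genes whose profiles over the 12 libraries were most like those of the members are a description only, since the libraries fall into 3 cultures and share the same spread. *Nfkbia* was nearest to *Ccl2* (Pearson r of log2 CPM 0.991, 11775 genes compared), followed by *Ccl7* (0.990), the MHC class I gene *H2-D1* (0.985), *Herc6* (0.981) and *Cxcl10* (0.981). For *Ccl7* the nearest were *Ccl2* (0.990), *Oas3* (0.985), *Zfp281* (0.983), *Gbp2* (0.982) and *Nfkbia* (0.981). For *Ccl5* they were the acute-phase gene *Saa3* (0.988), the adhesion gene *Vcam1* (0.985), *Gbp2* (0.985), *Clec4e* (0.980) and *Lbp* (0.979). *Cxcl16* was nearest to *Ccl8* (0.973), then *Gda*, *Prrx1*, *Casp4* and *Cck* (0.973 to 0.962). *Ccl9* had a different set, with *Cryab* (0.939), *Rfxap* (0.920), *Rnf139*, *Dbp* and *Nckap5* (0.914 to 0.896).

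Promoters of 3 members, 2 that were higher in 3W-PSCs and 1 that was not, were read from a RefSeq table on GRCm38.p6, in which *Ccl2*, *Ccl5* and *Ccl7* had no entry. The 250 bases before the start of each gene are shown 5′ to 3′ on the strand of the gene, because the regulators described above include NFκB genes. Capitals mark an NFκB motif and, in *Ccl9*, also an AP-1 motif.
*Ccl8*, chr11:82114935-82115184 (+ strand): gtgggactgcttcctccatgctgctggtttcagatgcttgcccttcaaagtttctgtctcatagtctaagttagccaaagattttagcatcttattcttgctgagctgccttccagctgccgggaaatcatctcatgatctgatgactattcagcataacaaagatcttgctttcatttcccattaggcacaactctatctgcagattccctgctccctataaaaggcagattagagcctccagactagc
*Ccl9*, chr11:83578637-83578886 (- strand): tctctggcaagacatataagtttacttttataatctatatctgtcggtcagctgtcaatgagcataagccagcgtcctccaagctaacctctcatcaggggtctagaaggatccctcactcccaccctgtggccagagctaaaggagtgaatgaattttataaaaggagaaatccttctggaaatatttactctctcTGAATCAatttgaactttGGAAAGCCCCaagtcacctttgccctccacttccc
*Ccl20*, chr1:83116516-83116765 (+ strand): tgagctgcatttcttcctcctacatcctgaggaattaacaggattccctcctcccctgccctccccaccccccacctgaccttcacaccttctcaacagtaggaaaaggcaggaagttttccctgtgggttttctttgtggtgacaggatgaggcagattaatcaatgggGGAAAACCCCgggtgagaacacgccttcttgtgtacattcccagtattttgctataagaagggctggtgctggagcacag
An NFκB motif was matched at -80 to -71 from the start of *Ccl20* and at -35 to -26 from that of *Ccl9*, on the minus strand of the gene in both. The AP-1 motif TGANTCA was matched at -53 to -47 of *Ccl9*. *Ccl8* held neither, and its 1 match was TATAAA at -32 to -27. The C/EBP motif TTNNGNAA was matched at -75 to -68 and at -38 to -31 of *Ccl9*, the latter overlapping the NFκB motif, and the STAT motif TTCNNNGAA and an interferon-response motif, GAAA repeated after 2 bases, in none of the 3. Both strands were searched, and of 32851 promoters of this length 3.90% held the NFκB motif, 6.75% the AP-1 motif, 36.9% the C/EBP motif, 7.02% the STAT motif, 2.98% the interferon-response motif and 12.4% TATAAA. A motif of the same kind was thus present in *Ccl20*, counted almost only in 3W-PSCs, and in *Ccl9*. Against mono-PSCs, edgeR called *Ccl9* lower in 3W-PSCs but not in 2W-PSCs. The motif was absent as letters from the window of *Ccl8*.

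MØ transcripts were measured beside the rise, since RAW264.7 cells shared the flask with 3W-PSCs and no MØs were present in the other cultures. Of the 16 macrophage markers, 6 were tested between 3W-PSCs and 2W-PSCs and 3 rose, *Cybb*, *Mpeg1* and *Cd53*, where 5.73% of all genes were called higher. *Cybb* had 63, 73, 32 and 33 counts in the 3W-PSC libraries and 0 in all 2W-PSC libraries. Between 2W-PSCs and mono-PSCs 0 of the 16 passed the filter. The 3 that rose thus passed it only through the 3W-PSC libraries in which they are high, which fixed the direction of their calls. The summed macrophage markers were 33.2, 26.5, 29.1 and 68.6 CPM in 3W-PSC replicates 1 to 4. Replicate 4, with the highest sum, had the lowest level of *Ccl2*, *Ccl7*, *Ccl5* and *Ccl20* of the 4, and replicate 2, with the lowest sum, had the highest *Ccl5* and *Ccl8*. The other way, *Ccl9* was lowest in replicate 2, at 2.89 CPM, and was at 5.85 CPM in replicate 4. *Ccl8* was lowest in replicate 3, at 5.98 CPM. Without replicate 4, *Ccl2*, *Ccl7*, *Ccl5* and *Ccl8* remained called against 2W-PSCs. The part of MØ transcripts in these levels was not tested beyond these values, and neither was that of cancer cell transcripts. Of the epithelial markers, edgeR called 5 of 5 tested higher in 2W-PSCs and 6 of 6 higher in 3W-PSCs, each against mono-PSCs. Of all genes, 0.839% and 13.4% were called higher in these comparisons. No epithelial marker had more than 7 counts in a mono-PSC library. Those tested thus passed the filter only through the co-culture libraries in which they are high, which fixed the direction of their calls. Between 3W-PSCs and 2W-PSCs 7 were tested and edgeR called 0, with 2 at an unadjusted p under 0.05 and 1 called lower by DESeq2.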

How the data were processed

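Per the methods, the authors made QuantSeq 3′ FWD libraries, read single ends, mapped them with STAR to GRCm38 and took counts for Ensembl genes with featureCounts. The deposited values are raw counts, although the methods call them normalised. Counts fall near transcript ends, so a wrong annotated 3′ end lowers them. Molecular identifiers are not mentioned in the methods, so intervals and floors cover counting error only.

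Library sizes were scaled by TMM in edgeR 4.0.16 (R 4.3.3). Genes passing filterByExpr were tested with glmQLFit and glmQLFTest on the 8 libraries of each comparison, without a block, with Benjamini-Hochberg adjustment over all genes and a threshold of 0.05. Fold changes used a prior count of 0.125, and ratios within a library added 0.5 to each count. Exact permutation tests were run in SciPy 1.17.1. A floor of 3 counts per library gave lower bounds. Coding sequences were aligned with Biopython 1.88. Alternatives were DESeq2 1.42.0, its size factors, other filters, all 12 libraries in one fit, a prior count of 2, a replicate block and each library left out. Counts of list genes without each library were added after seeing the data.

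The members and lists were chosen with earlier results of these data known. The genes named are the members, genes of lists fixed by role, and the 5 genes most correlated with each member. The lists were fitted with all genes, and no set test was run. The full genotype of the PCC line is not reported here. On simulated counts for 3W-PSCs against 2W-PSCs, edgeR called 98% of genes changed 4-fold and 45% of those changed 2-fold, with 8.33% of calls false, over 11386 genes, and DESeq2 called 98% and 63%, with 20.7% false, over 11513 genes.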

Additional observations from a re-analysis of the deposited data

Results flagged for a closer look

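*Ccl20* in 2W-PSC replicate 4, at 0.161 CPM from 1 count, lay apart from the other 2W-PSC libraries, which were at 0. Of 18 groups of 4 libraries examined for a library far from the rest, this was the 1 found, and chance gives about 1 in 20. The value is under the floor of 3 counts.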

How the results depend on the processing

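Between 3W-PSCs and either other culture, *Ccl2*, *Ccl5*, *Ccl7* and *Ccl8* kept direction and call in all 15 alternatives run (14 for *Ccl8*, which failed the filter of 10 counts), as did the fall of *Ccl9* against mono-PSCs. DESeq2 called *Ccl9* lower in 2W-PSCs than in mono-PSCs (-1.504, adjusted p 0.0379, where the 14 alternatives ranged from 0.0379 to 0.459). Its 3W-PSC against 2W-PSC value ranged from -0.12 to 0.49 with each library left out. In 2W-PSCs against mono-PSCs, leaving out a library moved *Ccl2* between -0.38 and 0.27, *Ccl5* between -0.0015 and 0.32 and *Ccl7* between -0.059 and 0.64, none called. The *Ccl20* difference between these cultures ranged from 0 to 0.0535 CPM. With no filter, edgeR called *Ccl20* higher in 3W-PSCs against both other cultures, as did DESeq2. With 3 counts added in place of 0.5, the *Ccl7* to *Ccl2* log2 ratio differed by -0.035 between 3W-PSCs and 2W-PSCs.

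Called genes in 3W-PSCs against 2W-PSCs numbered 1230, and 497 to 2107 with a library left out, the highest without 2W-PSC replicate 2. In 2W-PSCs against mono-PSCs they numbered 111, and 277 with DESeq2, 262 with all 12 libraries in one fit, 57 with at least 10 counts in every library, 177 with no filter and 61 to 233 with a library left out. The causes were not tested.

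The labels do not say what a replicate number marks. Deviations of same-numbered libraries correlated at -0.048 to 0.338, with 5 of 12 pairs over 0.1, so the numbers were not taken as pairs, although 8 of 12 libraries were most like one of their own number, a hint of sharing, and pairs of a mono-PSC and a 2W-PSC library had 0.099 to 0.338. With the replicate block, 752 genes were called in 3W-PSCs against 2W-PSCs, 135 in 2W-PSCs against mono-PSCs and 3092 in 3W-PSCs against mono-PSCs, and no call of a member changed. The paired differences of log2 ratios of -2.27, -1.98 and 0.50 had p = 0.125 by an exact permutation test, the smallest that 4 pairs can give.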
